A study of Mus musculus with 3 samples.

Results

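The RNA of 10 genes for storing, importing, exporting and sensing iron was read in skin mast cells of 3 embryonic origins. The genes were chosen by symbol for their known roles and make up 10 of the 20677 rows of the table. They are the ferritin chains Ftl1 and Fth1, the ferritin cargo receptor Ncoa4, the transporters and receptor Tfrc, Slc11a1, Slc11a2 and Slc40a1, the sensors Ireb2 and Aco1, and the haem-degrading enzyme Hmox1. All mice were of C57BL/6xCD1xFVB background, carried EYFP as a Cre reporter, and gave skin mast cells at 1 week after birth. The early EMP library came from Csf1rCre/EYFP mice given 4’OHT, which activates an inducible Cre, at embryonic day 8.5. The late EMP library came from Runx1Cre/EYFP mice pulsed at day 8.5, and the fetal HSC library from mice of the same line pulsed at day 9.5. EMP stands for erythro-myeloid progenitor and HSC for haematopoietic stem cell. A pulse labels the cells in which the driver gene is active at that time. Only the early EMP cells were labelled with the Csf1r driver, so in comparisons with them driver and origin cannot be told apart.

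Each origin has 1 library. No difference below has a replicate check, no test between origins was possible, and no p-value is given. The labels name neither the number nor the sex of the animals behind a library. RNA levels are in FPKM, fragments per kilobase of transcript per M mapped fragments (M is 1000000), so that levels of different genes can be compared. The total number of fragments is not stated. Steps between low values implied about 15.25 M fragments for early EMP, 15.6 M for late EMP and 17.3 M for fetal HSC. Values given as 3 in a row below follow that order. The 9 mast cell markers, among them Kit and Cpa3, were all detected, and summed to between 179494 and 214866 FPKM. Sex-linked RNAs separated the libraries: Xist was at 25.6, 0.53 and 52.0 FPKM and the Y-linked Ddx3y at 20.7, 38.5 and 0.32, so sex and origin cannot be told apart either. Because these are bulk samples, fewer cells of a type and less RNA per cell cannot be told apart.

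Cells take up iron bound to transferrin through the transferrin receptor, move it out of the endosome through a divalent metal transporter, and keep what they do not use inside ferritin, a hollow shell of light and heavy chains. Iron regulatory proteins, the products of Aco1 and Ireb2, bind hairpins called iron responsive elements when iron is scarce. Binding before the coding sequence blocks translation of ferritin and ferroportin RNA, while binding after the coding sequence protects transferrin receptor RNA from decay. FPKM values therefore do not show how much ferritin protein a cell holds.

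The hairpins of the members are shown because they link the storage, export and uptake genes to the same sensors. The RefSeq-matched transcripts of all 10 genes (GENCODE M21, GRCm38) were searched, on the transcribed strand, for C, then 5 bases, then a loop CAGTGN, then 5 bases able to pair with the first 5, counting G-T pairs. Of the 10 genes, 4 held a match, and of 20496 genes with a RefSeq-matched coding transcript 261 did, or 1.27%. The pattern is that of the known element and the 10 genes were chosen for iron roles, so these numbers are not a test. All 5 pairs were required, so a hairpin with a bulge or mismatch there is missed. A gene without a match may still hold an element. Each sequence below runs 5′ to 3′ with the 6-base loop in capitals.
Ftl1: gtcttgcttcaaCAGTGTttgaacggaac
Fth1: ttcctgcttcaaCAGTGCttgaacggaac
Slc40a1: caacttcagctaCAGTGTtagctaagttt
Tfrc hairpin 1: aattatcggaagCAGTGCcttccataatt
Tfrc hairpin 2: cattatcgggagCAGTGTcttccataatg
Tfrc hairpin 3: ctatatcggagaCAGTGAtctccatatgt
Tfrc hairpin 4: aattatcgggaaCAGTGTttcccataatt

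The matches of Ftl1 (chr7:45459779-45459807, minus strand), Fth1 (chr19:9982732-9982760, plus strand) and Slc40a1 (chr1:45925465-45925493, minus strand) lay in the 5′ UTR. The 4 matches of Tfrc lay in the 3′ UTR of 1 transcript, at chr16:32631219-32631247, chr16:32631598-32631626, chr16:32631663-32631691 and chr16:32631710-32631738 on the plus strand. A match describes these letters and was not tested as a binding site. The table gives 1 value per gene, so transcripts that keep or lack such a hairpin were not separated.

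Ferritin light chain RNA was among the most abundant in these cells. Ftl1 (chromosome 7, 45457944 to 45459886, GRCm38) reached 11548 FPKM in early EMP, 11124 in late EMP and 13796 in fetal HSC. It ranked 5, 5 and 4 of all rows and made up 1.81%, 1.81% and 2.15% of the summed FPKM. The fetal HSC library was the highest, at 1.19 times early EMP and 1.24 times late EMP. Fth1, the heavy chain that oxidises iron for storage (chromosome 19, 9980600 to 9985111), was at 990 FPKM in early EMP, 982 in late EMP and 976 in fetal HSC. Its highest and lowest values were 1.01 times apart, the narrowest spread of the 10 genes. The light chain thus exceeded the heavy chain 11.7-fold, 11.3-fold and 14.1-fold in the same order.

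Both ferritin chains lay far inside 2-fold in every comparison. With 95% counting intervals, which rest on the implied depth and cover counting error only, the Fth1 ratio was 0.992 (0.967 to 1.02) for late EMP over early EMP and 0.986 (0.962 to 1.01) for fetal HSC over early EMP. The sign of the Fth1 difference turned under rescaling in each comparison, and that of Ftl1 between late and early EMP under 1 rescaling, so no direction is given for them. Ferritin has near-identical copies in the genome that can share fragments with it. The only other rows whose symbols begin with Ftl or Fth were Fthl17e and Fthl17d. Fthl17e was at 0.27 FPKM in early EMP and listed at 0 in the other 2 libraries. Fthl17d was at 0.33 in late EMP and listed at 0 in the other 2. Copies under other symbols or in unnamed regions were not looked for, so sharing of fragments was not tested.

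Ncoa4, the receptor that delivers ferritin to lysosomes so that its iron is released, came next after the ferritin chains in level (chromosome 14, 32159879 to 32179855). It was at 104 FPKM in early EMP, 122 in late EMP and 115 in fetal HSC. The libraries lay within 1.17-fold of each other.

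**Figure D1:**
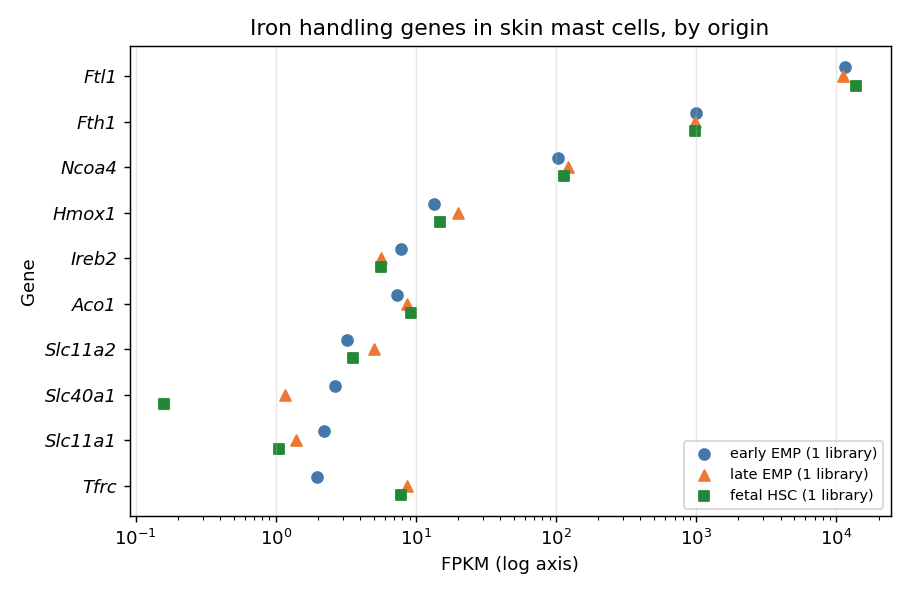
FPKM of the 10 iron handling genes (log axis) by origin (early EMP, late EMP, fetal HSC), with 1 library and so 1 point per origin. Ftl1 lies at 11124 FPKM or more throughout, Fth1 points overlap between 976 and 990, and Tfrc and Slc40a1 show the widest spacing.

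Tfrc, the transferrin receptor, was the only one of the 10 genes at least 2-fold higher in the late EMP library than in early EMP. Tfrc (chromosome 16, 32608896 to 32632794) was at 1.98 FPKM in early EMP, 8.57 in late EMP and 7.84 in fetal HSC. The early EMP library was low and the other 2 were close together. The plain ratios to early EMP were 4.33 (95% counting interval 3.6 to 5.22) for late EMP and 3.96 (3.29 to 4.77) for fetal HSC, from about 144 implied fragments in early EMP, 634 in late EMP and 644 in fetal HSC. Fetal HSC over late EMP was 0.915 (0.818 to 1.02), an interval that includes 1. On the log2 scale of FPKM + 1, where ratios of low genes shrink, the 3 differences were 1.68, 1.57 and -0.11, the last turning to 0.01 with median-of-ratios factors. Both comparisons with early EMP share that library, so they are not independent of each other. With a pseudocount of 5 FPKM in place of 1, the first and second fell under 2-fold, at 0.96 and 0.88.

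Dividing cells are known to need much iron, and genes of mitosis differed between the libraries alongside Tfrc. All 15 genes of a mitosis list were at least 2-fold higher in late EMP than in early EMP, and all 15 in fetal HSC than in early EMP, while none of the 15 was 2-fold apart between fetal HSC and late EMP. Their summed level was 43.5 FPKM in early EMP, 241 in late EMP and 255 in fetal HSC. Over all rows at 1 FPKM or more in at least 1 library, 8.65% were higher and 10.8% lower in late EMP over early EMP. For fetal HSC over early EMP 8.19% were higher and 17.8% lower, and for fetal HSC over late EMP 3.46% were higher and 8.26% lower. Erythroid precursors also carry much transferrin receptor. The erythroid list was split: its 12 matched genes summed to 224, 30.6 and 22.3 FPKM, a sum carried by globin rows such as Hba-a1 (124, 7.95 and 5.85 FPKM). In late EMP over early EMP 5 of its genes, all globins, were at least 2-fold lower, while 2 were higher. These 2 were Klf1, an erythroid transcription factor (0.31, 3.85 and 1.13 FPKM), and Ahsp, a chaperone of alpha globin. Ahsp was listed at 0 in early EMP, and was at 2.94 FPKM in late EMP and 1.5 in fetal HSC. In fetal HSC over early EMP, of 10 past the filter, 6 were lower, all globins, and 1 was higher, Ahsp. Alas2, the haem synthesis enzyme of red cells, was listed at 0 in early EMP and fetal HSC and at 0.04 in late EMP. The summed levels of neutrophil and melanocyte markers were also lowest in early EMP, at 3.57, 48.4 and 112 FPKM over 6 matched genes and at 1.59, 13.8 and 40.7 FPKM over 5. The neutrophil list was split. The granule enzymes Mpo (0.88, 39.2 and 47.9) and Elane (0.42, 8.73 and 34.74) were lowest in early EMP. S100a8 was at 1.30, 0 and 28.95, Ly6g at 0.42, 0 and 0, Lcn2 at 0.55, 0.45 and 0.25, and Ltf at 0, 0.02 and 0.02. The part of dividing cells, erythroid cells or these other cells in the Tfrc difference was not tested.

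Slc40a1, ferroportin, the exporter of iron from cells, showed the widest ratio of the 10 genes. Slc40a1 (chromosome 1, 45908070 to 45926532) was at 2.63 FPKM in early EMP, 1.16 in late EMP and 0.16 in fetal HSC. The implied fragments behind these values were about 130, 58 and 9. Early EMP was 16.4 times fetal HSC, with a 95% counting interval of 8.34 to 36.5, and late EMP was 7.25 times fetal HSC (3.53 to 16.5). Early EMP was 2.27 times late EMP (1.66 to 3.16). On the log2 scale of FPKM + 1 the difference was -1.65 for fetal HSC over early EMP, -0.75 for late EMP over early EMP and -0.90 for fetal HSC over late EMP. The pseudocount decided which of these passed 2-fold: with 0.1 FPKM they were -3.39, -1.12 and -2.28, all past it, and with 5 FPKM they were -0.56, -0.31 and -0.26, none past it.

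Slc11a1, a metal transporter of the phagosome membrane known from macrophages, was low in all libraries (chromosome 1, 74375014 to 74386057). It was at 2.20 FPKM in early EMP, 1.39 in late EMP and 1.05 in fetal HSC, an order like that of Slc40a1. The ratio of fetal HSC to early EMP was 0.477 (95% counting interval 0.321 to 0.723), and that of fetal HSC to late EMP was 0.755 (0.488 to 1.19), which includes 1. With a pseudocount of 0.1 FPKM the first comparison just reached 2-fold, against a log2 difference of -0.64 with 1 FPKM.

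Macrophages are rich in ferroportin and Slc11a1, and the summed macrophage markers ran in the same order of libraries. The 12 matched markers of a 14-gene list summed to 118 FPKM in early EMP, 97.5 in late EMP and 68.1 in fetal HSC. Of the 9 that passed the filter, 4 (C1qa, C1qb, C1qc and Csf1r) were at least 2-fold lower in fetal HSC than in early EMP and none higher, with C1qb, a complement subunit, at 20.4, 13.3 and 3.96 FPKM. In late EMP over early EMP, 2 (Adgre1 and Cd163) were higher and 1 (Cd68) lower. Over all rows past the filter, 17.8% were lower in fetal HSC over early EMP, or 8.6% of those with a symbol. For late over early EMP 8.65% of all rows were higher and 10.8% lower. Lyz2, a lysozyme shared with other myeloid cells, was the most abundant marker at 37.7, 39.8 and 44.8 FPKM. Timd4 was listed at 0 in early EMP and fetal HSC and at 0.79 FPKM in late EMP, and Fcgr1 was listed at 0 in fetal HSC. The part of macrophages in the Slc40a1 and Slc11a1 differences was not tested.

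**Figure D2:**
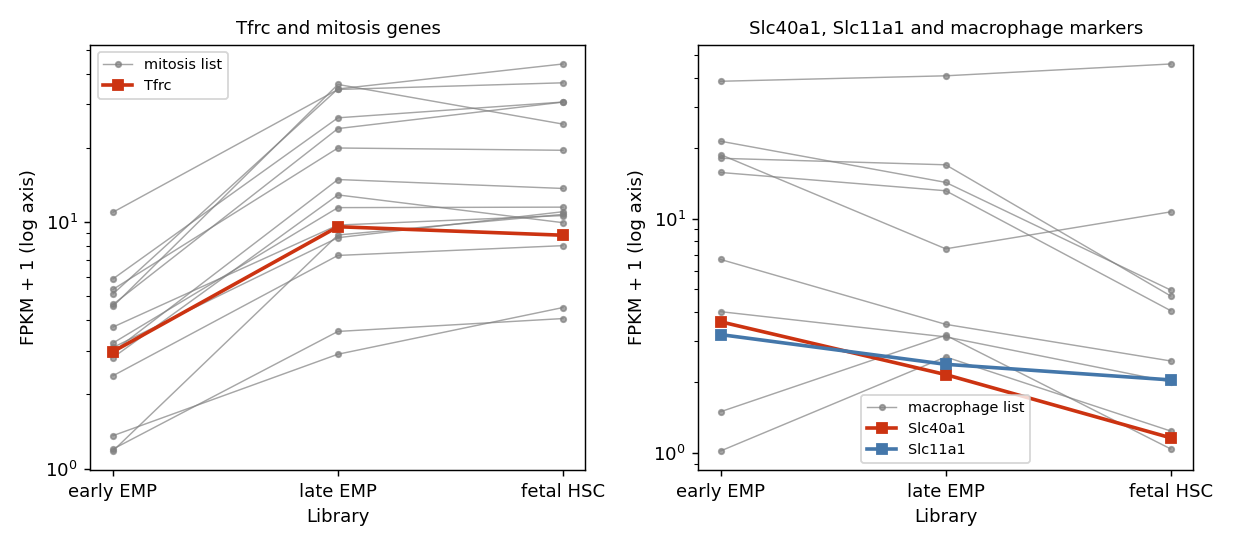
FPKM + 1 (log axis) by library, 1 point per gene and library, with lines joining a gene's values. Left, Tfrc with the 15 mitosis genes, which summed to 43.5, 241 and 255 FPKM. Right, Slc40a1 and Slc11a1 with the 9 macrophage markers past the filter. Of these markers 4 were at least 2-fold lower in fetal HSC than in early EMP, where 17.8% of all rows were lower.

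Slc11a2, the divalent metal transporter that carries iron out of the endosome (chromosome 15, 100387898 to 100424209), was at 3.21 FPKM in early EMP, 5.03 in late EMP and 3.53 in fetal HSC. Late EMP was the highest, at 1.57 times early EMP (95% counting interval 1.29 to 1.9). Fetal HSC over early EMP was 1.1 (0.898 to 1.35), an interval that includes 1.

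The iron sensors differed little and in opposite directions. Ireb2, iron regulatory protein 2, which is destroyed when iron is plentiful (chromosome 9, 54862658 to 54912534), was at 7.76 FPKM in early EMP, 5.59 in late EMP and 5.60 in fetal HSC. Early EMP was the highest, and the other 2 were level, with a ratio of fetal HSC to late EMP of 1 (95% counting interval 0.885 to 1.13). Aco1, which encodes an enzyme that becomes iron regulatory protein 1 when it loses its iron-sulphur cluster (chromosome 4, 40143265 to 40199009), was at 7.31 FPKM in early EMP, 8.64 in late EMP and 9.27 in fetal HSC. Early EMP was here the lowest, at a ratio of 1.18 (1.03 to 1.35) for late EMP and 1.27 (1.12 to 1.44) for fetal HSC. Aco1 over Ireb2 was thus 0.942 in early EMP, 1.55 in late EMP and 1.66 in fetal HSC.

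Hmox1, haem oxygenase 1, which releases iron from haem and is a stress response gene (chromosome 8, 75093618 to 75100593), was at 13.5 FPKM in early EMP, 19.9 in late EMP and 14.7 in fetal HSC. Late EMP was the highest, at 1.47 times early EMP (95% counting interval 1.27 to 1.71). Fetal HSC over early EMP was 1.09 (0.934 to 1.28), which includes 1. Slc11a2 and Hmox1 were therefore both highest in late EMP, by less than 2-fold.

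Counted over the 10 genes, all of which passed a filter of 1 FPKM in at least 1 library, late EMP over early EMP had 1 gene at least 2-fold higher (Tfrc) and none lower. Among 14412 rows that passed the same filter, 8.65% were higher and 10.8% lower, and among 11529 with a symbol 7.55% and 4.24%. Fetal HSC over early EMP had 1 higher (Tfrc) and 1 lower (Slc40a1), where 8.19% of all rows were higher and 17.8% lower, or 8.08% and 8.6% of those with a symbol. Fetal HSC over late EMP had none of 10 in either direction, where 3.46% were higher and 8.26% lower, or 2.73% and 5.36% with a symbol. With 10 genes these shares lie near the background. The medians of the 10 were 0.10, 0.11 and -0.10 on the log2 scale, against 0.00, -0.11 and -0.10 over all rows and 0.06, -0.03 and -0.08 over rows with a symbol.

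**Figure D3:**
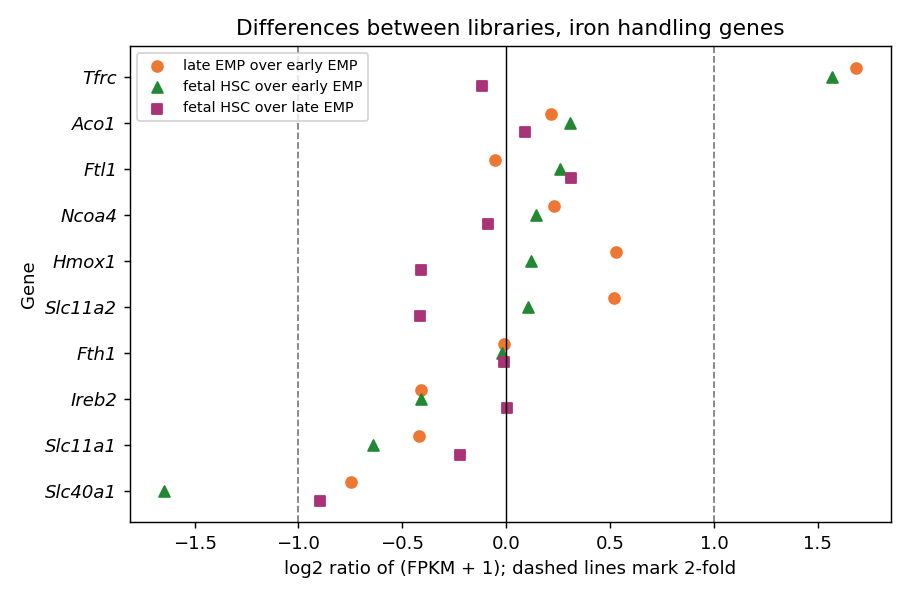
Log2 ratio of (FPKM + 1) for each of the 10 iron handling genes in the 3 comparisons, 1 point per comparison, with dashed lines at 2-fold. Tfrc lies beyond 2-fold at 1.68 and 1.57 over early EMP, Slc40a1 at -1.65 for fetal HSC over early EMP, and all other points lie inside.

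Of 108 other genes of iron and haem handling, 101 were matched to a row and 85 passed the filter. In late EMP over early EMP 4 were at least 2-fold higher (Steap3, Slc39a8, Cd163 and Flvcr1) and 2 lower (Trf and Cybrd1). Fetal HSC over early EMP had 4 higher (Alas1, Flvcr1, Cisd3 and Srxn1) and 8 lower (Scara5, Abcb6, Slc48a1, Abcb8, Nubpl, Glrx5, Fdx2 and Bach2). Fetal HSC over late EMP had 1 higher (Trf) and 5 lower (Cd163, Zfp36, Abcb6, Abcb8 and Nubpl). Some of these names lie below the level the naming rule asked for and were added after their values were seen. Their medians were 0.08, 0.03 and -0.09 on the log2 scale. These shares too lie near or below those of rows with a symbol.

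Among the uptake genes, Trf stood out. Trf encodes transferrin, the iron carrier of plasma that Tfrc binds, and it was at 891 FPKM in early EMP, 242 in late EMP and 648 in fetal HSC. Late EMP was low and the other 2 were closer together, with log2 differences of -1.88 for late EMP over early EMP, -0.46 for fetal HSC over early EMP and 1.42 for fetal HSC over late EMP. Cybrd1, a membrane ferric reductase, was at 5.79, 1.80 and 2.88 FPKM, at least 2-fold lower in late EMP than in early EMP. Mcoln1, an ion channel of late endosomes and lysosomes, was at 19.9, 22.4 and 12.7 FPKM, within 2-fold. Of the 9 uptake genes past the filter, 3 were higher and 2 lower in late EMP over early EMP, where 8.65% of all rows were higher and 10.8% lower. The 3 higher ones (Steap3, Slc39a8 and Cd163) were all at 1.57 FPKM or less.

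The genes of iron export and the hepcidin axis other than ferroportin were low. Of all 20677 rows, 14412 reached 1 FPKM in at least 1 library, whereas none of the 6 matched genes of this list did. The multicopper oxidases that load exported iron onto transferrin were among them: Heph was at 0.81, 0.26 and 0 FPKM, and Cp at 0.57, 0 and 0.01. These genes had not been singled out by the naming rule and were chosen after their values were seen.

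Among genes of iron delivery within the cell, the chaperone Pcbp1, which carries iron to ferritin, was at 50.3, 55.4 and 48.8 FPKM, Pcbp2 at 22.9, 22.6 and 29.4, and Bola2 at 42.5, 37.8 and 36.9. Pcbp3, of the same family, was lower in level and differed more, at 3.27, 7.53 and 7.10 FPKM. Glrx3, a glutaredoxin that handles iron-sulphur clusters, was at 24.6, 39.9 and 28.9. On the FPKM + 1 scale none of the 6 storage and chaperone genes was 2-fold apart in any comparison, with Pcbp3 just under it for late EMP over early EMP, although its plain ratio of highest to lowest value was 2.3. The 11 genes of iron sensing and ferritin turnover past the filter were all within 2-fold of early EMP. Of all rows, 8.65% were higher and 10.8% lower in late over early EMP, and 8.19% and 17.8% in fetal HSC over early EMP. Among rows with a symbol the shares were 7.55% and 4.24%, then 8.08% and 8.6%. The exception of the 11, in fetal HSC over late EMP, was Zfp36, an RNA-binding protein that promotes RNA decay. Zfp36 was at 2227 FPKM against 4656, with 3934 in early EMP. In that comparison 3.46% of all rows were higher and 8.26% lower, or 2.73% and 5.36% of those with a symbol. Egln1, an oxygen- and iron-dependent hydroxylase, was at 10.9, 7.68 and 6.84 FPKM.

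In haem synthesis, Alas1, the enzyme of the first step outside red cells, was at 3.05 FPKM in early EMP, 6.74 in late EMP and 12.4 in fetal HSC. Fetal HSC was the highest, and the difference from early EMP was 1.73 on the log2 scale. Abcb6, a porphyrin transporter, went the other way at 3.72, 3.38 and 1.19 FPKM, lower in fetal HSC than in early EMP (log2 -1.11). Fech, the last enzyme, which inserts iron into the porphyrin ring, was the most abundant of the list at 216, 157 and 156 FPKM, within 2-fold. Of the 12 genes past the filter none was 2-fold apart between late and early EMP. In that comparison 8.65% of all rows were higher and 10.8% lower, or 7.55% and 4.24% of those with a symbol. In fetal HSC over early EMP 1 of the 12 was higher (Alas1) and 1 lower (Abcb6). The shares of all rows there were 8.19% and 17.8%, or 8.08% and 8.6% of those with a symbol. Slc25a38, a mitochondrial carrier needed for haem synthesis, was at 17.5, 9.45 and 9.75 FPKM, highest in early EMP and also within 2-fold.

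In haem breakdown and transport, Blvrb and Blvra, the reductases that act on the product of haem oxygenase, were at 94.6, 114 and 104 FPKM and at 71.9, 58.3 and 50.7. Both were within 2-fold. Slc48a1, which moves haem out of lysosomes and endosomes, was at 35.8, 30.6 and 16.5 FPKM, at least 2-fold lower in fetal HSC than in early EMP (log2 -1.08). Flvcr1, a haem exporter, was at 0.07, 1.61 and 1.68 FPKM.

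Of 25 genes of mitochondrial iron and iron-sulphur clusters, none was 2-fold apart between late and early EMP. In fetal HSC over early EMP 1 was higher (Cisd3) and 4 were lower (Abcb8, Nubpl, Glrx5 and Fdx2). Over all rows past the filter 8.19% were higher and 17.8% lower in that comparison, or 8.08% and 8.6% of those with a symbol. For late over early EMP the shares of all rows were 8.65% and 10.8%. Abcb8, a transporter of the inner mitochondrial membrane, was at 5.68, 6.57 and 1.10 FPKM, and Nubpl, an assembly factor of respiratory complex I, at 5.63, 4.87 and 1.02, with fetal HSC low in both. Cisd3, an iron-sulphur protein of mitochondria, was at 5.90, 8.83 and 14.4 FPKM, with fetal HSC high. The abundant members were level, among them the ferredoxin Fdx1 at 163, 135 and 159 FPKM and the cluster carrier Nfu1 at 104, 116 and 109.

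Hmox1 and both ferritin genes are known targets of the activator Nrf2 and the repressor Bach1. Nfe2l2, which encodes Nrf2, was at 86.9, 99.4 and 109 FPKM, and Bach1 at 0.58, 1.26 and 1.59; both were chosen after their values were seen. None of the 13 genes of this list past the filter was 2-fold apart between late and early EMP. The shares of all rows there were 8.65% higher and 10.8% lower, or 7.55% and 4.24% of those with a symbol. In fetal HSC over early EMP, Srxn1, an antioxidant reductase, was higher at 11.1 FPKM against 4.83, and Bach2 lower at 2.62 against 6.52. That is 1 higher and 1 lower of the 13, where 8.19% of all rows were higher and 17.8% lower. Among rows with a symbol the shares were 8.08% and 8.6%. Gpx4, which protects membranes from iron-driven lipid peroxidation, was at 397, 398 and 354 FPKM.

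**Figure D4:**
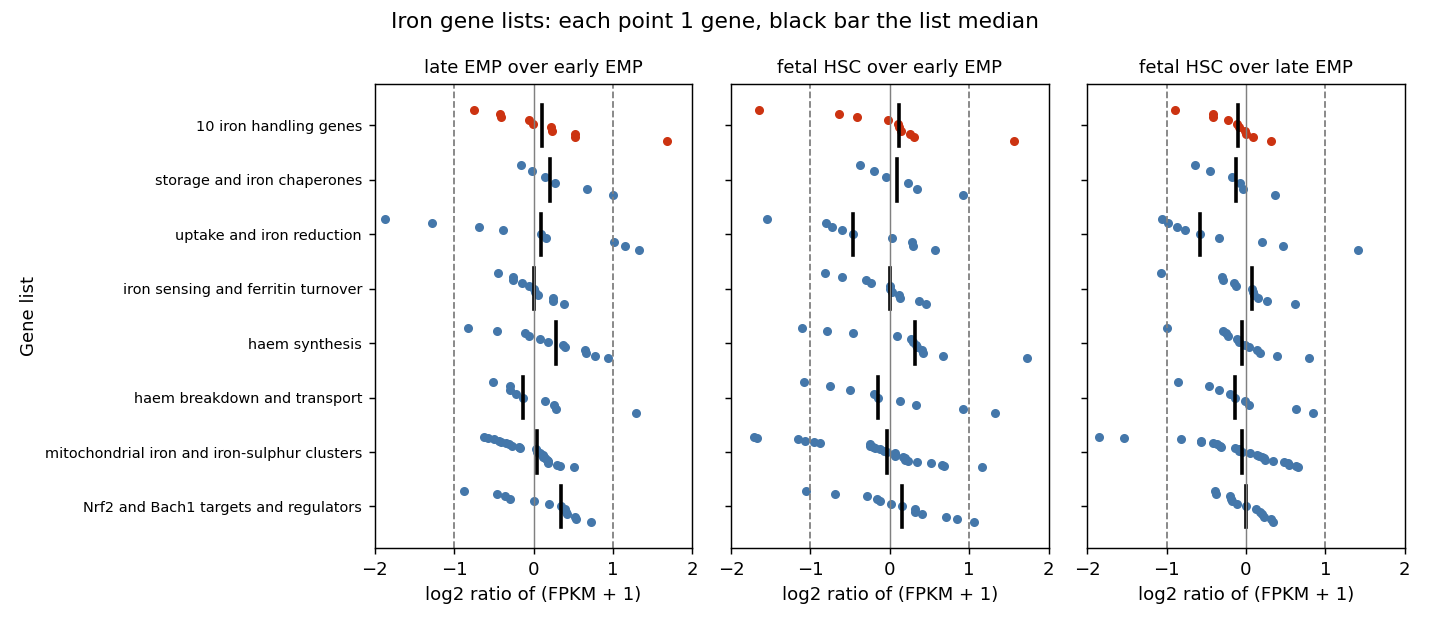
Log2 ratio of (FPKM + 1) for each gene past the filter in the 10-gene set (red) and the other iron lists (blue), 1 panel per comparison, with a black bar at each list's median and dashed lines at 2-fold. The medians of the 10-gene set lie at 0.10, 0.11 and -0.10, and the leftmost point of the left panel is Trf at -1.88.

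Genes most like a member were found by the distance between log2(FPKM + 1) values centred over the 3 libraries, among 5654 genes with a symbol and 10 FPKM or more in 1 library. Nearest to Tfrc were Rgcc (39.7, 126 and 119 FPKM), Dut (2.55, 10.6 and 9.10), which makes dUMP for DNA synthesis, and Gstk1 (6.94, 23.0 and 22.2), at distances of 0.03 to 0.07. Nearest to Slc40a1 were Tab1 (13.3, 7.60 and 3.75), Gng11 (17.3, 10.3 and 5.21) and B230307C23Rik (19.3, 10.8 and 5.71), at 0.04 to 0.06. Nearest to Hmox1 were Hmgb3 (17.4, 25.2 and 18.9), Abcf2 (14.0, 20.5 and 15.1) and Zcchc6 (29.1, 42.6 and 31.4), at 0.01. Within a distance of 0.25 there were 32 genes for Tfrc, 17 for Slc40a1 and 785 for Hmox1. Slc40a1 and Tfrc stayed below 10 FPKM themselves, and adding 1 FPKM shrinks the ratios of low genes more. Plain ratios can therefore differ between a member and its nearest genes. For Slc40a1, early EMP was 16.4 times fetal HSC, more than for the 3 genes named. With only 3 libraries many genes share a pattern, so likeness here is a description.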

How the data were processed

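Per the labels' protocols, TRIzol was used on the sorted cells and libraries were run on an Illumina HiSeq. Gene levels were deposited by the authors as FPKM in 1 table with 2 decimals, per the file headers; Bowtie2, RSEM, mm10 and GRCm38 are named without versions in the submitters' processing notes. Table columns were matched to libraries through the descriptions in the labels. Coordinates come from RefSeq GRCm38.p6, and hairpins from GENCODE M21. The members and gene lists were chosen with earlier results of these data known.

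Rows at 1 FPKM or more in at least 1 library were kept. Fold changes are log2 ratios of FPKM + 1, counted at 2-fold. With 1 library per group there was no test. Depth was implied from values below 2 FPKM of genes with 1 transcript of 300 to 900 bases: at the best step and length offset, 73.9%, 75.2% and 67.2% lay within 0.15 of a whole fragment, against a mean of about 30.3%, 30.1% and 29.7% over all steps tried. This is imprecise and was fitted to the same values. Implied fragments use RefSeq lengths, although some genes list additional transcripts, and exact binomial 95% intervals of their ratios cover counting error only. All 10 members were named; from other iron lists, the 2 with the highest mean and up to 3 with the largest fold at 5 FPKM or more, of which some are left out, and the nearest 3 genes to Tfrc, Hmox1 and Slc40a1. One gene of the erythroid list is not reported here and was left out of its sums. The fold calls were tested on simulated data. Alternatives were other pseudocounts (0.1 and 5 FPKM), no filter or one at 5 FPKM, 3 rescalings (equal totals, median-of-ratios factors, totals without the 50 most abundant genes), leaving out unnamed regions, a 4-fold level and sums over ferritin rows. Software was scipy 1.17.1, numpy 2.4.6, matplotlib 3.10.9, pandas 2.3.3 and Python 3.11.15.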

Additional observations from a re-analysis of the deposited data

How the results depend on the processing

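Low values make the counts depend on the pseudocount. In the order late EMP against early EMP, fetal HSC against early EMP, then fetal HSC against late EMP, the main counts among the 10 genes were 1, 1 and 0 higher and 0, 1 and 0 lower. With 0.1 FPKM, 1, 2 and 1 were lower (Slc40a1 in each, Slc11a1 in the second). With 5 FPKM, 0 were higher and 0 lower in every comparison. At 4-fold, 0 were apart in either comparison with early EMP. With the filter at 5 FPKM, Slc40a1 and Slc11a1 were not kept, and 0 were lower in fetal HSC over early EMP. Among the other iron genes, late over early EMP went from 4 higher and 2 lower to 8 and 4 with 0.1 FPKM and 0 and 1 with 5 FPKM, and to 0 higher with the filter at 5 FPKM. Fetal HSC over early EMP went from 4 higher and 8 lower to 10 and 11 with 0.1 FPKM, 1 and 0 with 5 FPKM, and 5 lower with median-of-ratios factors. Fetal HSC over late EMP went from 1 higher and 5 lower to 2 and 8 with 0.1 FPKM, 1 lower with 5 FPKM, 3 lower with the filter at 5 FPKM and 2 lower with median-of-ratios factors.

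Over all rows, 2805, 3749 and 1689 genes were at least 2-fold apart. With 0.1 FPKM the numbers were 4528, 5255 and 3620, and with 5 FPKM 328, 460 and 195. With the filter at 5 FPKM they were 767, 1098 and 524, and without unnamed regions 1359, 1922 and 933. Fewer rows are tested under the last 2 settings. The settings with 0.1 and 5 FPKM keep the same rows and values and change only the pseudocount. There were 240 values of single members under the alternatives. The filter settings, leaving out unnamed regions and the Ftl1 sum could not change a member's value, so those values repeat the main ones. Only the pseudocounts, the rescalings and the Fth1 sum could change a value. In all, 8 values had the opposite sign, all from rescaling and all but 1 from a main value under 0.1 on the log2 scale. A further 6 crossed 2-fold, all from the pseudocount. The median of all rows for fetal HSC over late EMP was -0.10 as deposited and 0.00 with median-of-ratios factors. No paired analysis was possible because each group has 1 library.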
